A study of Mus musculus with 6 samples.

Results

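The genes described here are the protein-coding Wnt pathway genes of the deposited tables: the Wnt ligands, the Frizzled and LRP receptors, the R-spondins with their receptors, the secreted inhibitors, and the intracellular transducers and transcription factors. They were picked by gene name. The names were the whole set of Wnt, Fzd, Sfrp, Dkk, Rspo, Dvl, Axin, Tcf7 and Lgr4 to Lgr6 symbols. Single genes such as Ctnnb1, Apc and Porcn were added by name. Every protein-coding match was kept whatever its value, but the set itself was chosen with earlier results of these data known. The rule gave 67 genes of the 55802 in the tables. The cells were primary neural stem cells taken from the brains of adult C57BL/6 mice, from the subventricular zone (SVZ), the niche along the lateral ventricles that makes new neurons throughout life, and their RNA was sequenced after 24 h of adenovirus infection. The SETD4 OE group (n = 3) had received ADV-SETD4-GFP, a virus that carries the SET domain protein SETD4 together with green fluorescent protein, and its genotype label reads SETD4 overexpression. The control group (n = 3) had received ADV-GFP and is labelled WT. Both groups therefore carried an adenovirus and GFP, both were grown in neural medium with B27, and the share of cells infected is not stated. The labels do not say that the 3 libraries of a group came from separate cultures or animals, so p-values measure the spread between these libraries, which may be technical.

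In the Wnt pathway a lipid-modified ligand binds a Frizzled receptor together with LRP5 or LRP6. Dishevelled then blocks the destruction complex of Axin, APC and GSK3, so that beta-catenin escapes degradation, enters the nucleus and activates genes with TCF and LEF factors. Some ligands and Frizzleds act without beta-catenin, on cell polarity and the cytoskeleton. In the SVZ the pathway is known for its part in stem cell activation, self-renewal and neurogenesis.

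Setd4 itself had 296, 346 and 333 FPKM in the SETD4 OE libraries, against 0.952, 0.972 and 1.53 FPKM in the control libraries, so that all 6 libraries matched their labels. The deposited values do not separate viral from endogenous Setd4 reads. The libraries held 14924273 to 18078717 reads over the listed genes, recovered from the FPKM values (fragments per kilobase of a gene's length, scaled to the library's size). Of the neural stem cell markers Nes, Sox2, Slc1a3, Fabp7, Vim, Msi1, Pax6, Egfr, Hes5 and Gfap, all 10 were expressed at 1 FPKM or more on average, and they summed to 3343 to 3515 FPKM in SETD4 OE and 2718 to 2934 FPKM in control. In SETD4 OE 7 of them were higher and 3 lower (Nes, Fabp7 and Vim), by the test given below. Over all tested genes 60.0% were called, 26.0% higher and 33.9% lower. The same shares stand beside the counts of the marker lists that follow. The higher sum was carried by Gfap, at 1388 FPKM in SETD4 OE and 321 FPKM in control, and without it the other 9 summed to 1996 to 2083 FPKM in SETD4 OE and 2398 to 2606 FPKM in control. Of 10 endothelial markers 1 reached the filter (Flt1, lower) and Cldn5 was at 0 in all 6 libraries; the list summed to 1.90 to 2.22 FPKM in SETD4 OE and 4.64 to 4.87 FPKM in control. None of 10 microglia and macrophage markers reached it, and they summed to 2.31 to 2.54 FPKM in SETD4 OE and 1.09 to 1.32 FPKM in control. Marker sums of other SVZ cells also differed between the groups. All 5 tested of 8 choroid plexus markers were higher, with a sum of 635 to 725 FPKM in SETD4 OE and 254 to 284 FPKM in control, most of it Ttr. Of 8 ependymal markers 7 were tested and 6 were higher (57.0 to 74.9 FPKM in SETD4 OE and 23.6 to 27.6 FPKM in control), and of 7 astrocyte markers 6 were tested and 5 were higher (709 to 724 FPKM in SETD4 OE and 342 to 378 FPKM in control). Of 10 oligodendrocyte lineage markers 7 were higher and 2 lower (Olig1 and Olig2, which hold most of the sum of 729 to 786 FPKM in SETD4 OE and 1159 to 1295 FPKM in control). Of 10 neuronal markers 1 was higher and 3 lower (6.27 to 6.95 FPKM in SETD4 OE and 15.9 to 17.5 FPKM in control), and of 11 markers of fibroblasts, meninges and mural cells 4 were higher and 1 lower (28.3 to 31.5 FPKM in SETD4 OE and 34.9 to 39.3 FPKM in control). The lower sum of this last list was carried by Acta2, and the other 10 markers summed to 18.5 to 18.7 FPKM in SETD4 OE and 6.20 to 6.69 FPKM in control. Of the markers called, 10 averaged below 1 FPKM in 1 of the groups and reached the filter only through the group where they were higher. The part of these cells in the Wnt gene results was not tested. In bulk RNA, fewer cells of a type and less RNA per cell cannot be told apart.

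Of the 67 genes, 38 averaged 1 FPKM or more across all 6 libraries and were tested, and 29 did not reach that level. In SETD4 OE, 15 of the 38 rose and 7 fell, while 16 did not pass the test (limma on log2(FPKM + 1), Benjamini-Hochberg adjusted p under 0.05 over all 12994 tested genes). The share called, 57.9%, was near the background: 60.0% of all tested genes were called in this comparison. By direction, 39.5% of the tested Wnt genes rose and 18.4% fell, beside 26.0% and 33.9% of all tested genes. The median log2 fold change was 0.10 for the Wnt genes and -0.06 for all tested genes, and the median absolute change was 0.31 and 0.33. The SETD4 OE and control values did not overlap for 68.4% of the tested Wnt genes, beside 66.0% of all tested genes. The shares called and without overlap were thus near those of all tested genes, and within the set more genes rose than fell. Of the 38 tested Wnt genes, 14 were called with an absolute log2 fold change of at least 0.5 (9 higher and 5 lower), beside 31.3% of all tested genes. A call with a change of more than 1 on the log2 scale was reached by 5 of the 38, beside 9.06% of all tested genes. These were Nkd1 and Tcf7l1 (higher) and Fzd1, Tcf7 and Fzd7 (lower).

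**Figure D1:**
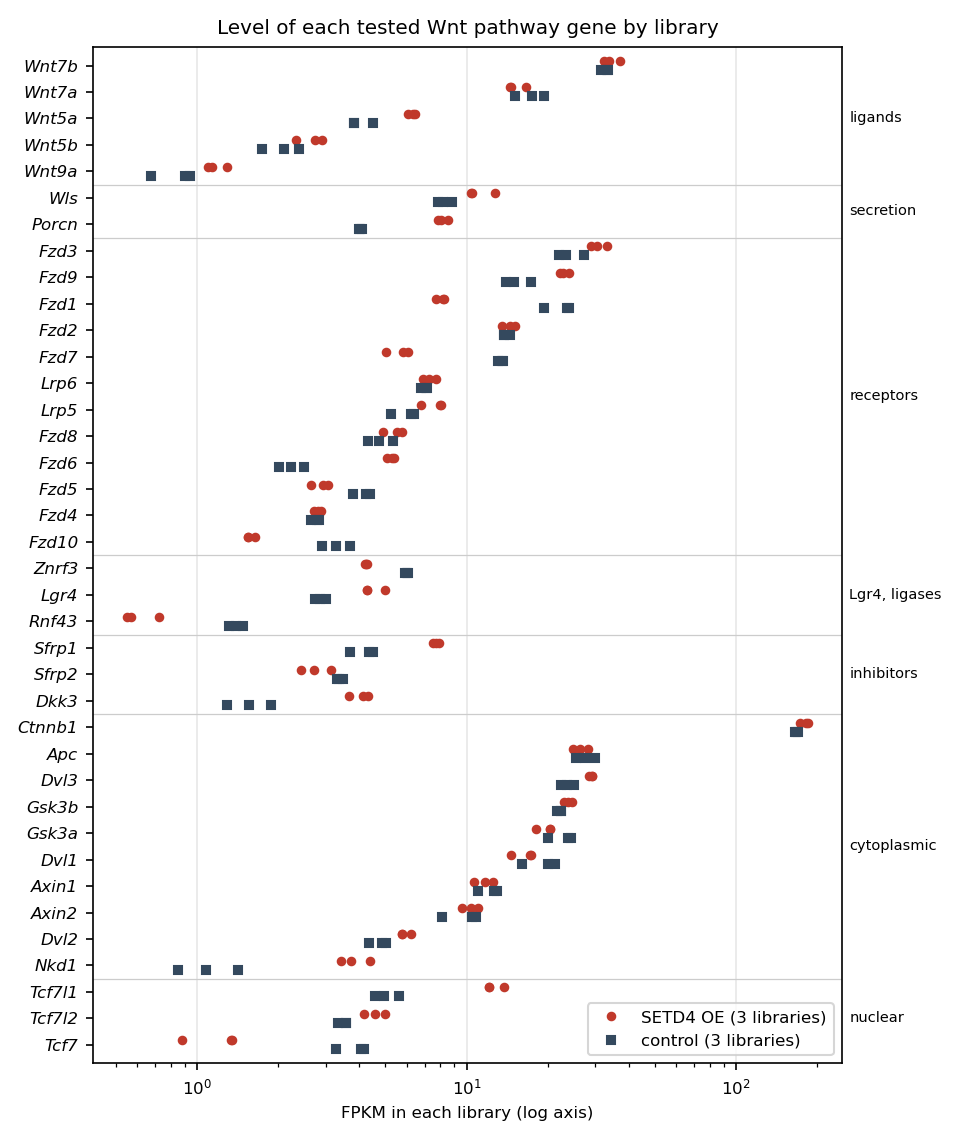
FPKM of the 38 tested Wnt pathway genes in each of the 6 libraries, on a log axis, grouped by role. Each circle is a SETD4 OE library and each square a control library. Ctnnb1 stands far to the right, and the groups separate most for Nkd1, Tcf7, Tcf7l1, Fzd1 and Fzd7.

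**Figure D2:**
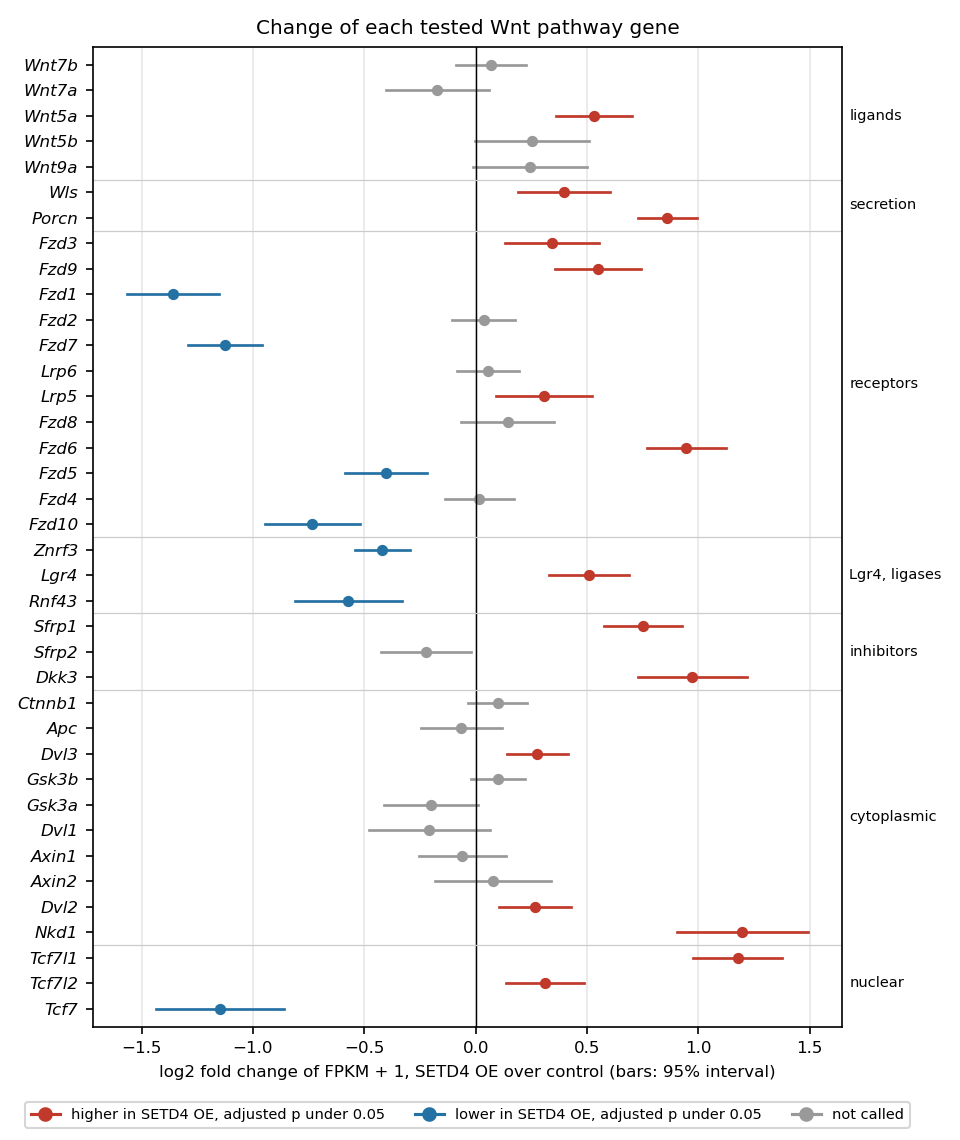
Log2 fold change of FPKM + 1, SETD4 OE over control, for the same 38 genes, with 95% intervals from the limma fit. The 7 genes called lower all lie among the Frizzled receptors, the R-spondin group and the TCF factors. The 15 genes called higher are spread over all the roles. The intervals of Ctnnb1, Apc, Axin1 and Axin2 include 0.

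The ligand supply was dominated by a pair of genes that did not pass the test. Wnt7b, a ligand of the developing forebrain that signals through beta-catenin, was the most abundant, with 33.9, 32.4 and 37.1 FPKM in the SETD4 OE libraries, against 33.3, 33.6 and 31.4 FPKM in the control libraries. The groups overlapped, and the log2 fold change was 0.07 (95% interval -0.09 to 0.22). It passed only with quantile normalization (0.24, adjusted p = 0.0141, limma). Its close relative Wnt7a stood at 15.2 ± 1.22 FPKM in SETD4 OE and 17.4 ± 2.13 FPKM in control (SD, n = 3 each; log2 fold change -0.17, interval -0.40 to 0.06). Wnt7a passed only when control replicate 1 was left out (-0.26, adjusted p = 0.0326, limma). Of the summed ligand FPKM the pair held 78.8% ± 1.07 in SETD4 OE and 83.7% ± 0.304 in control, and this share was lower in each SETD4 OE library than in any control library.

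Wnt5a, the main ligand of beta-catenin-independent signalling, was the one ligand called. It had 6.32, 6.45 and 6.04 FPKM in the SETD4 OE libraries, against 4.49, 3.81 and 3.83 FPKM in the control libraries. All 3 SETD4 OE values lay above all control values, a ratio of means of 1.55 (limma log2 fold change 0.53, SE 0.07, adjusted p = 0.000672). Its paralogue Wnt5b had a log2 fold change of 0.25 and Wnt9a of 0.24, and neither passed (adjusted p = 0.0818 and 0.0886, limma). Wnt9a reached the filter only through its SETD4 OE libraries. Wnt5b passed with equal sums or upper quartile scaling (adjusted p = 0.0398 and 0.0421), and its span overlaps Fbxl14 on the other strand, itself at 8.32 FPKM in SETD4 OE and 12.02 FPKM in control. The strand setting of the counting is not given, so reads of such partners cannot be told apart.

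The other 14 ligands lay below the threshold, 8 of them under 0.1 FPKM on average, so that Wnt1, Wnt3a, Wnt8a, Wnt9b, Wnt10a, Wnt10b, Wnt11 and Wnt16 rested on 8 reads or fewer in every library. Wnt2 was the one low ligand whose SETD4 OE values were all below the control values, with 3, 7 and 7 reads in the SETD4 OE libraries, against 43, 59 and 33 reads in the control libraries. Wnt2b had 69, 59 and 77 reads in the SETD4 OE libraries, against 36, 18 and 42 reads in the control libraries. Wnt3, a ligand of the hippocampal stem cell niche, had 37, 27 and 41 reads in the SETD4 OE libraries, against 12, 17 and 18 reads in the control libraries, and Wnt8b had 21, 14 and 18 reads in the SETD4 OE libraries, against 8, 9 and 10 reads in the control libraries. All 3 SETD4 OE values of Wnt2b, Wnt3 and Wnt8b lay above all control values. Of the 29 Wnt genes not tested, 7 were higher without overlap in SETD4 OE and 1 was lower. The share without overlap over all genes below the threshold was not computed, and the 66.0% holds for tested genes only. With no filter on low values, the limma adjusted p was 0.00255 for Wnt2, 0.0450 for Wnt2b, 0.0244 for Wnt3 and 0.0518 for Wnt8b, so the first 3 passed. Wnt4 (0.683 FPKM in SETD4 OE and 0.433 FPKM in control) and Wnt6 (0.149 FPKM in SETD4 OE and 0.116 FPKM in control) overlapped between the groups.

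Of the machinery that makes ligands fit for secretion, the tested genes Porcn and Wls rose, beside 26.0% of all tested genes called higher. Porcn encodes the acyltransferase that attaches the lipid to Wnt proteins, and it had 8.04, 8.54 and 7.84 FPKM in the SETD4 OE libraries, against 3.995, 4.09 and 4.02 FPKM in the control libraries. Every SETD4 OE library held more than any control library, and the ratio of means was 2.02 (limma log2 fold change 0.86, SE 0.06, adjusted p = 2.13e-05). Wls, the carrier that takes the lipid-bearing ligand to the cell surface, had 10.4, 12.7 and 10.5 FPKM in the SETD4 OE libraries, against 8.80, 8.15 and 7.80 FPKM in the control libraries. Its values did not overlap either (limma log2 fold change 0.40, SE 0.09, adjusted p = 0.00637). Notum, a secreted esterase that removes the lipid and so inactivates the ligand, was below the threshold, with 14, 4 and 19 reads in the SETD4 OE libraries, against 17, 28 and 27 reads in the control libraries, and its groups overlapped.

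All 12 receptor and co-receptor genes were expressed above the threshold, and they divided evenly: 4 rose, 4 fell and 4 did not pass, beside 60.0% called, 26.0% higher and 33.9% lower over all tested genes. Their summed level was 115 ± 1.35 FPKM in SETD4 OE and 119 ± 2.64 FPKM in control. The largest falls were in a pair of closely related receptors. Fzd1 (ENSMUSG00000044674; mm39 chromosome 5, 4803839 to 4808035, minus strand) had 7.70, 8.19 and 8.25 FPKM in the SETD4 OE libraries, against 19.4, 23.5 and 24.0 FPKM in the control libraries. No SETD4 OE value reached 9 FPKM and no control value was below 19 FPKM, and the control mean was 2.77 times the SETD4 OE mean (limma log2 fold change -1.36 with SE 0.09, adjusted p = 1.97e-05). Fzd7 (ENSMUSG00000041075; mm39 chromosome 1, 59521583 to 59526114, plus strand), a receptor linked to stem cell maintenance, had 6.04, 5.03 and 5.81 FPKM in the SETD4 OE libraries, against 13.1, 13.6 and 13.5 FPKM in the control libraries. The groups were again far apart, with a control mean 2.39 times the SETD4 OE mean (limma log2 fold change -1.13, SE 0.07, adjusted p = 1.83e-05). The third receptor of this subgroup, Fzd2, had 14.4 ± 0.814 FPKM in SETD4 OE and 14.0 ± 0.420 FPKM in control (log2 fold change 0.04, interval -0.10 to 0.18) and did not pass, except with quantile normalization (adjusted p = 0.0470, limma).

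The Fzd3 and Fzd6 subgroup, known from planar cell polarity and axon guidance, moved the other way. Fzd6 had 5.28, 5.08 and 5.37 FPKM in the SETD4 OE libraries, against 2.49, 2.02 and 2.23 FPKM in the control libraries. Its SETD4 OE values were all more than 2 FPKM above the highest control value (ratio of means 2.34, log2 fold change 0.95, SE 0.07, adjusted p = 4.97e-05, limma). Fzd3, the most abundant Frizzled in SETD4 OE, had 30.4, 33.1 and 29.0 FPKM in the SETD4 OE libraries, against 27.2, 22.0 and 23.3 FPKM in the control libraries. It rose by less, with no overlap (limma log2 fold change 0.34, SE 0.09, adjusted p = 0.0135).

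The remaining subgroups were divided within themselves. Fzd9 had 22.3, 22.9 and 23.9 FPKM in the SETD4 OE libraries, against 14.0, 17.4 and 15.0 FPKM in the control libraries. It rose (limma log2 fold change 0.55, SE 0.08, adjusted p = 0.00105), while its relative Fzd10 fell. Fzd10 had 1.54, 1.54 and 1.64 FPKM in the SETD4 OE libraries, against 2.90, 3.71 and 3.27 FPKM in the control libraries, without overlap (limma log2 fold change -0.73, SE 0.09, adjusted p = 0.000398). A noncoding gene named as its opposite strand partner, Fzd10os, had a mean FPKM of 0.501 ± 0.273 in SETD4 OE and 0.530 ± 0.160 in control. Fzd4, the receptor of norrin, stood at 2.80 ± 0.0860 FPKM in SETD4 OE and 2.75 ± 0.1001 FPKM in control and did not pass (interval -0.14 to 0.17). Fzd5 fell, at 2.88 ± 0.220 FPKM in SETD4 OE and 4.13 ± 0.313 FPKM in control (log2 fold change -0.40, adjusted p = 0.00351, limma), and the related Fzd8 did not pass (log2 fold change 0.14, interval -0.07 to 0.35). Of the co-receptors, Lrp6 did not pass (0.06, interval -0.08 to 0.20). Lrp5 was called higher, at 7.59 ± 0.685 FPKM in SETD4 OE and 5.95 ± 0.624 FPKM in control (log2 fold change 0.31, adjusted p = 0.0230, limma), but lost the call without SETD4 OE replicate 1 (0.0776), without SETD4 OE replicate 3 (0.0733) or with no filter (0.0589).

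FPKM is scaled to gene length, so levels of different receptors can be set beside each other, and their shares within a library do not depend on the scaling between libraries. Fzd1, Fzd2 and Fzd7 together held 28.1% ± 0.883 in SETD4 OE and 46.6% ± 1.95 in control of the summed Frizzled FPKM (mean and SD, n = 3 each). For Fzd3 and Fzd6 the share was 36.2% ± 1.82 in SETD4 OE and 24.8% ± 3.28 in control, and for Fzd4, Fzd9 and Fzd10 it was 27.4% ± 0.758 in SETD4 OE and 20.2% ± 1.52 in control. Each of these 3 shares separated the groups without overlap, whereas Fzd5 and Fzd8 held 8.28% ± 0.367 in SETD4 OE and 8.37% ± 0.163 in control, with overlap. Shares of a sum depend on each other, so a share can rise while the level does not. Fzd2 (14.4% in SETD4 OE and 13.1% in control) and Fzd4 (2.80% and 2.59%) had higher shares without overlap, though neither level passed. In the third subgroup the share of Fzd9 was higher (23.1% in SETD4 OE and 14.5% in control) and that of Fzd10 lower (1.58% and 3.09%). Summed over the 10 Frizzled genes, the FPKM was 99.8 ± 1.67 in SETD4 OE and 107 ± 2.21 in control. An exact permutation test of 3 against 3 libraries cannot give a two-sided p below 0.10, so none is quoted for the shares.

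**Figure D3:**
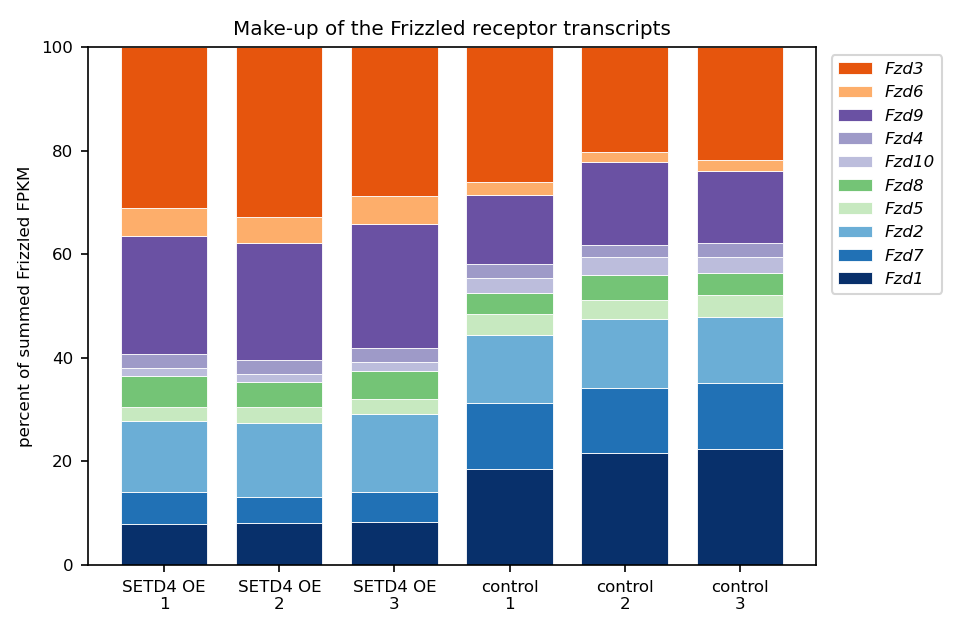
Share of each Frizzled gene in the summed Frizzled FPKM of each library, in percent, with the 3 SETD4 OE libraries left of the 3 control libraries. The blue segments (Fzd1, Fzd7 and Fzd2) hold 27.4% to 29.1% in SETD4 OE and 44.4% to 47.9% in control, and the orange ones (Fzd3 and Fzd6) are larger in SETD4 OE.

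The sequences shown are the 250 bases before the RefSeq transcription start (build GRCm38.p6) of Fzd1 and Fzd7, the receptors that fell together, of Fzd9, a receptor that rose, and of Tcf7l1, whose rise was among the largest. The Nkd1 and Tcf7 entries are not shown, since they start away from the first start of the gene. Capitals mark the letters CTTTG or the reverse complement CAAAG, the core that TCF and LEF factors recognise. Fzd1 lies at chr5:4758217-4758466, minus strand, Fzd7 at chr1:59481897-59482146, plus strand, Fzd9 at chr5:135251048-135251297, minus strand, and Tcf7l1 at chr6:72789046-72789295, minus strand.
Fzd1: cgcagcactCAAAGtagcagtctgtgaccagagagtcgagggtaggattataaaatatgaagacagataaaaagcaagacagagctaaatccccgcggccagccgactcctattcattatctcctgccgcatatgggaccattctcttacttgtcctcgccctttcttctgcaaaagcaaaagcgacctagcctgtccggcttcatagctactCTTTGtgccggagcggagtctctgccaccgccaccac
Fzd7: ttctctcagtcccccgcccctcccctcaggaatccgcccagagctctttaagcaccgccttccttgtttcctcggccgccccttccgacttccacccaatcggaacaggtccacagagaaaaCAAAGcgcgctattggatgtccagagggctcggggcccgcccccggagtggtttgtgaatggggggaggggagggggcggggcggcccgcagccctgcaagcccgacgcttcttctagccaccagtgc
Fzd9: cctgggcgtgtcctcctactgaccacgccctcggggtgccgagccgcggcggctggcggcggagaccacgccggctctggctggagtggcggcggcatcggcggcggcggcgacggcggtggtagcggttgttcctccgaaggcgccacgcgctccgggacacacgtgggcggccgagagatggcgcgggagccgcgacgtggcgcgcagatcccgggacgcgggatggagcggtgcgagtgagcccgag
Tcf7l1: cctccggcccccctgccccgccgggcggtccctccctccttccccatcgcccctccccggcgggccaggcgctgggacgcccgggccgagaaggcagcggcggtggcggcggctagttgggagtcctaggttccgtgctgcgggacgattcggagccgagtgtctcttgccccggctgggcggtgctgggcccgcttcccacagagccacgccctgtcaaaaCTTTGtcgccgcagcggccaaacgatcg
The core occurred at 2 places in the Fzd1 window and at 1 in each of the Fzd7 and Tcf7l1 windows. The Fzd9 window held none. The fuller motif CTTTGAT was absent from these 4 windows on both strands. Of 55 promoter entries matched by symbol to 45 of the 67 genes, 2 held it (3.64%), 1 each for Wnt11 and Wnt5b, beside 3.21% of all 32851 promoters of the same length. The shorter core, which is part of the motif, occurred in 43.6% of the Wnt gene promoters and 48.6% of all promoters. The Fzd9 window had 76.4% G and C and 42 CpG, the Tcf7l1 window 73.6% G and C and 29 CpG, the Fzd7 window 65.2% G and C and 17 CpG and the Fzd1 window 51.2% G and C and 12 CpG, beside medians of 52.4% and 6 CpG over all promoters. A missing match says only that these letters are not in this window, and other transcription starts of these genes were not searched unless RefSeq lists them.

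R-spondins amplify Wnt signals by binding LGR receptors, which disables the ligases RNF43 and ZNRF3 that would otherwise remove Frizzled from the cell surface. In these cells the receptor gene Lgr4 rose and both ligase genes fell. Over all tested genes 60.0% were called, 26.0% higher and 33.9% lower, and R-spondin signalling itself was not measured. Lgr4 had 4.99, 4.28 and 4.27 FPKM in the SETD4 OE libraries, against 3.01, 2.86 and 2.75 FPKM in the control libraries. There was no overlap, and the mean was 1.57 times the control mean (limma log2 fold change 0.51 with SE 0.08, adjusted p = 0.00106). Znrf3, the more abundant ligase, had 4.27, 4.21 and 4.23 FPKM in the SETD4 OE libraries, against 6.07, 6.01 and 5.91 FPKM in the control libraries. Its replicates were tight and the groups well apart (limma log2 fold change -0.42, SE 0.05, adjusted p = 0.000440). Rnf43 had 0.724, 0.549 and 0.567 FPKM in the SETD4 OE libraries, against 1.31, 1.48 and 1.39 FPKM in the control libraries. It fell too (limma log2 fold change -0.57, SE 0.10, adjusted p = 0.00240), on 56 to 75 reads in SETD4 OE and 138 to 171 reads in control, and it reached the threshold of 1 FPKM only through its control libraries.

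None of the 4 R-spondins reached the threshold. Rspo3 was the highest, with 42, 55 and 53 reads in the SETD4 OE libraries, against 15, 7 and 22 reads in the control libraries. All its SETD4 OE values exceeded the controls, and with no filter on low values the log2 fold change was 0.64 (adjusted p = 0.0113, limma). Rspo1, Rspo2 and Rspo4 overlapped between the groups, with at most 8, 21 and 2 reads in any library. Lgr5, the stem cell marker of the intestine, had 20, 19 and 16 reads in the SETD4 OE libraries, against 12, 1 and 8 reads in the control libraries. The groups did not overlap, but with no filter the adjusted p was 0.115 (limma). Lgr6 overlapped at 0.156 FPKM in SETD4 OE and 0.192 FPKM in control.

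Secreted inhibitors summed to 15.7 ± 0.523 FPKM in SETD4 OE and 9.65 ± 0.654 FPKM in control, with no overlap between the groups. Sfrp1, a Frizzled-like decoy that binds Wnt proteins, was the most abundant and had 7.49, 7.71 and 7.89 FPKM in the SETD4 OE libraries, against 4.498, 4.34 and 3.70 FPKM in the control libraries. Its mean was 1.84 times the control mean (limma log2 fold change 0.75, SE 0.07, adjusted p = 0.000141). Dkk3, a divergent member of the Dickkopf family, had 3.68, 4.14 and 4.29 FPKM in the SETD4 OE libraries, against 1.88, 1.29 and 1.55 FPKM in the control libraries. The ratio of means was 2.57, again without overlap (limma log2 fold change 0.97, SE 0.10, adjusted p = 0.000208). Sfrp2 did not pass, although all its SETD4 OE values were below the controls, at 2.76 ± 0.359 FPKM in SETD4 OE and 3.38 ± 0.0923 FPKM in control (log2 fold change -0.22, adjusted p = 0.0552, limma); it passed under 3 alternatives, with median of ratios scaling (0.0431), quantile normalization (0.0327) and without SETD4 OE replicate 2 (0.0206).

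The classical LRP inhibitors were scarcely present. Dkk1, which binds LRP5 and LRP6, had 2 reads in 1 control library and 0 in the other 5 libraries, and Dkk4 had none in any library. Dkk2 had 1 to 3 reads in SETD4 OE and 0 or 1 in control, and Wif1, which binds Wnt ligands directly, had at most 6 reads. Sfrp4 lay below the threshold, with 57, 53 and 63 reads in the SETD4 OE libraries, against 32, 25 and 20 reads in the control libraries. It was higher in every SETD4 OE library, with a log2 fold change of 0.44 when no filter was applied (adjusted p = 0.0134, limma). Sfrp5 had 3 to 15 reads in SETD4 OE and 0 to 4 reads in control, with overlap.

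Beta-catenin and its destruction complex did not pass the test. Ctnnb1, which encodes beta-catenin, was by far the most abundant of the 67 genes, with 173, 181 and 185 FPKM in the SETD4 OE libraries, against 169.9, 166 and 166 FPKM in the control libraries. Every SETD4 OE value lay above the controls, but by little, and the test did not pass (log2 fold change 0.10, interval -0.03 to 0.23, adjusted p = 0.168, limma). This result depended on the scaling: Ctnnb1 passed with equal sums (0.18 on the log2 scale, adjusted p = 0.0221), upper quartile (0.16, 0.0339) and quantile normalization (0.33, 0.00316). Of the destruction complex, Apc had a log2 fold change of -0.06 (interval -0.25 to 0.12), Axin1 of -0.06 (-0.25 to 0.14), Gsk3a of -0.20 (-0.41 to 0.01) and Gsk3b of 0.10 (-0.02 to 0.22), and none passed. The signs of Apc and Axin1 turned under other scalings, and Gsk3b passed under the same 3 scalings as Ctnnb1. Gsk3a passed without control replicate 1, as lower in SETD4 OE (-0.28, adjusted p = 0.0140, limma).

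Among the Dishevelled adaptors, Dvl3 rose, at 28.9 ± 0.457 FPKM in SETD4 OE and 23.7 ± 1.39 FPKM in control (log2 fold change 0.28, adjusted p = 0.00526, limma). Dvl2 also rose, at 5.90 ± 0.278 FPKM in SETD4 OE and 4.75 ± 0.353 FPKM in control (0.27, adjusted p = 0.0131, limma), but not without SETD4 OE replicate 1 (0.0512). The span of Dvl2 overlaps Acadvl on the other strand, which is several times more abundant. Acadvl was itself called higher, at 33.0 FPKM in SETD4 OE and 27.7 FPKM in control (0.24), and reads of the 2 genes cannot be told apart here. Dvl1 stood at 16.4 ± 1.54 FPKM in SETD4 OE and 19.1 ± 2.77 FPKM in control (-0.21, adjusted p = 0.161, limma), and without control replicate 1 it passed as lower in SETD4 OE (-0.32, adjusted p = 0.0183).

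Several of the 67 genes are known as transcriptional targets of beta-catenin that feed back on the pathway. Of 9 such genes, grouped with their values known (Axin2, Nkd1, Nkd2, Rnf43, Znrf3, Lgr5, Notum, Tcf7 and Lef1), 5 were tested: Nkd1 rose, Rnf43, Znrf3 and Tcf7 fell, and Axin2 did not pass. Over all tested genes 60.0% were called, 26.0% higher and 33.9% lower. Axin2, the most used reporter of the pathway, had 11.0, 9.63 and 10.4 FPKM in the SETD4 OE libraries, against 8.07, 10.8 and 10.5 FPKM in the control libraries. The groups overlapped (log2 fold change 0.08, interval -0.18 to 0.34, adjusted p = 0.565, limma), and the sign turned without control replicate 1 (-0.04). Nkd1 (ENSMUSG00000031661; mm39 chromosome 8, 89247982 to 89321512, plus strand), which binds Dishevelled and restrains signalling, had 4.36, 3.42 and 3.73 FPKM in the SETD4 OE libraries, against 0.849, 1.42 and 1.08 FPKM in the control libraries. No SETD4 OE value was below 3 FPKM and no control value reached 2 FPKM, and the ratio of means was 3.44, on 242 to 314 reads in SETD4 OE and 62 to 114 reads in control (limma log2 fold change 1.20, SE 0.12, adjusted p = 0.000184). The ratio of Nkd1 to Axin2 within a library, which no scaling between libraries can change, was 0.396, 0.355 and 0.360 in the SETD4 OE libraries, against 0.105, 0.131 and 0.103 in the control libraries. It restates the rise of Nkd1 beside a gene that did not pass, and is not separate evidence. Nkd2, the paralogue of Nkd1, overlapped below the threshold at 0.292 FPKM in SETD4 OE and 0.166 FPKM in control.

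The TCF and LEF factors, which carry beta-catenin to DNA, moved in both directions, beside 26.0% higher and 33.9% lower over all tested genes. Tcf7l1 (ENSMUSG00000055799; mm39 chromosome 6, 72603361 to 72766237, minus strand), the member that acts mainly as a repressor and is known from stem cells, had 12.1, 12.1 and 13.8 FPKM in the SETD4 OE libraries, against 4.58, 5.62 and 4.93 FPKM in the control libraries. The groups did not overlap, and the ratio of means was 2.51 (limma log2 fold change 1.18, SE 0.08, adjusted p = 3.21e-05). Tcf7 (ENSMUSG00000000782; mm39 chromosome 11, 52143198 to 52174158, minus strand), which encodes TCF1 and is itself a Wnt target, had 0.881, 1.34 and 1.33 FPKM in the SETD4 OE libraries, against 3.29, 4.16 and 4.06 FPKM in the control libraries. The separation was as complete in the other direction, with a control mean 3.24 times the SETD4 OE mean (limma log2 fold change -1.15, SE 0.12, adjusted p = 0.000196). Tcf7l2, known in oligodendrocyte maturation, had 4.16, 4.59 and 4.98 FPKM in the SETD4 OE libraries, against 3.57, 3.34 and 3.56 FPKM in the control libraries. It rose by less (limma log2 fold change 0.31, SE 0.07, adjusted p = 0.00916). Lef1 was nearly silent in both groups, with 8, 12 and 6 reads in the SETD4 OE libraries, against 4, 4 and 7 reads in the control libraries. In shares of the 4 genes' summed FPKM, Tcf7l1 held 68.5% ± 1.78 in SETD4 OE and 40.6% ± 1.88 in control and Tcf7 held 6.38% ± 1.16 in SETD4 OE and 30.8% ± 1.91 in control. Within libraries the ratio of Tcf7l1 to Tcf7 FPKM was 13.7, 9.01 and 10.3 in the SETD4 OE libraries, against 1.39, 1.35 and 1.22 in the control libraries. This gap follows from the opposite calls of these genes and is not separate evidence.

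**Figure D4:**
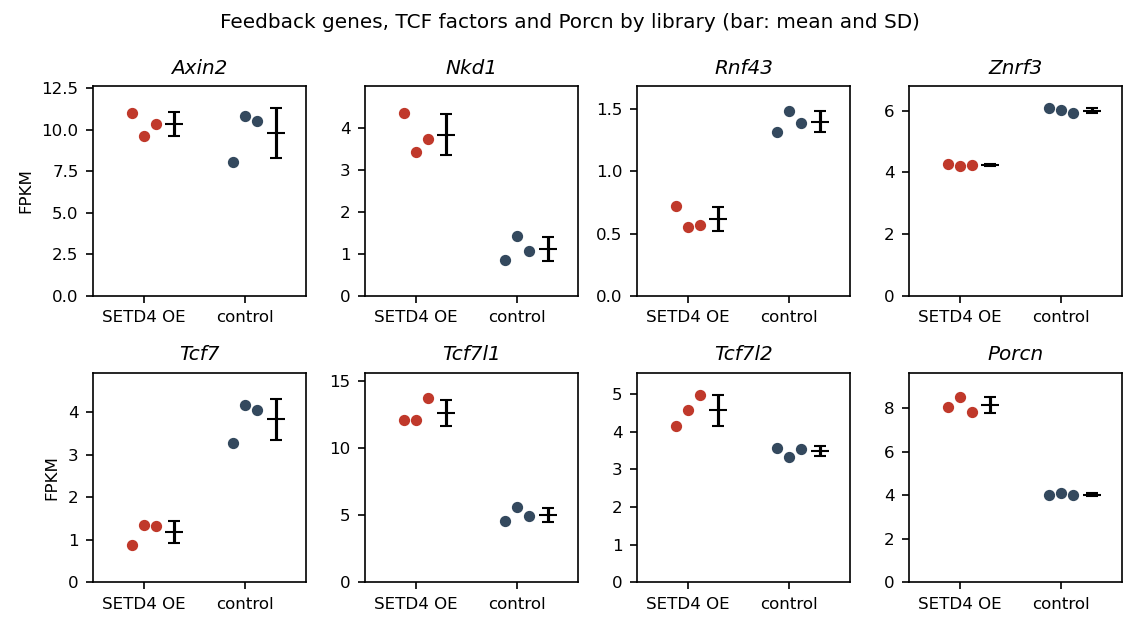
FPKM of Axin2, Nkd1, Rnf43, Znrf3, Tcf7, Tcf7l1, Tcf7l2 and Porcn in each library, SETD4 OE left of control, with the mean and SD beside the points. Axin2 overlaps between the groups, Nkd1, Tcf7l1, Tcf7l2 and Porcn are higher in all SETD4 OE libraries, and Rnf43, Znrf3 and Tcf7 are lower in all of them.

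Around the 67 genes, 5 further lists of the pathway (113 genes, 84 tested) were described in the same fit. In SETD4 OE, 26 of these genes rose and 27 fell, 63.1% of those tested, beside the 60.0% of all tested genes; with equal sums scaling the split was 34 and 22, and with quantile normalization 33 and 21. Among 12 tested extracellular modulators 5 rose and 4 fell, beside 26.0% higher and 33.9% lower over all tested genes. The median log2 fold change of this list was 0.18. Draxin, a guidance protein that has been described as a Wnt antagonist, changed most (26.2 FPKM in SETD4 OE and 1.37 FPKM in control; 3.52 on the log2 scale); its span overlaps Mad2l2 on the other strand, which was at 26.2 FPKM in SETD4 OE and 9.29 FPKM in control. Sulf1, which trims the heparan sulphate that holds Wnt proteins at the surface, had 6.13, 6.43 and 6.18 FPKM in the SETD4 OE libraries, against 2.42, 2.44 and 2.51 FPKM in the control libraries (log2 fold change 1.07). Cthrc1, a secreted protein of the polarity branch, had 3.34, 2.63 and 4.26 FPKM in the SETD4 OE libraries, against 1.21, 1.39 and 0.829 FPKM in the control libraries (1.03).

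Among 23 tested cytoplasmic regulators 7 rose and 7 fell (9 and 5 with equal sums scaling, 8 and 3 with quantile normalization). Beside them, 60.0% of all tested genes were called, 26.0% higher and 33.9% lower. The median log2 fold change of the list was -0.02. Dact1, which binds Dishevelled, had 0.926, 1.01 and 0.878 FPKM in the SETD4 OE libraries, against 2.71, 2.71 and 2.81 FPKM in the control libraries (log2 fold change -0.95), and reached the filter only through its control libraries. Ccdc88c, another Dishevelled-binding protein, had 8.60, 7.89 and 8.09 FPKM in the SETD4 OE libraries, against 3.93, 3.94 and 4.62 FPKM in the control libraries (0.84), and Frat1, which binds GSK3 and keeps it from Axin, had 3.49, 3.18 and 3.93 FPKM in the SETD4 OE libraries, against 1.77, 1.67 and 2.04 FPKM in the control libraries (0.68). The nuclear cofactors of beta-catenin gave 5 higher and 5 lower of 20, beside the same shares of all tested genes, with a median of 0.01. The split was 8 and 4 with equal sums scaling and 9 and 4 with quantile normalization. Hbp1, a repressor of Wnt target genes, was at 11.3 ± 0.8 FPKM in SETD4 OE and 3.85 ± 0.686 FPKM in control (1.35); its span overlaps Cog5 on the other strand, which was not called. The Groucho corepressors went both ways: Tle1 was at 16.7 ± 0.721 FPKM in SETD4 OE and 8.87 ± 0.304 FPKM in control (0.84), and Tle2 at 1.20 ± 0.192 FPKM in SETD4 OE and 3.89 ± 0.4996 FPKM in control (-1.15).

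Among 15 tested genes of planar polarity and the alternative receptors 4 rose and 3 fell, beside 60.0% called (26.0% higher, 33.9% lower) over all tested genes. The median was 0.12, and the split was 6 and 2 with equal sums scaling and 5 and 2 with quantile normalization. Daam2, a formin that links Dishevelled to the cytoskeleton, had 25.4, 23.0 and 23.9 FPKM in the SETD4 OE libraries, against 9.69, 8.56 and 9.13 FPKM in the control libraries (1.31). The atypical cadherins Celsr1, at 6.58 ± 0.384 FPKM in SETD4 OE and 2.90 ± 0.174 FPKM in control (0.96), and Celsr2, at 12.7 ± 0.764 FPKM in SETD4 OE and 7.72 ± 0.262 FPKM in control (0.65), rose as well. Of the known Wnt targets outside the 67 genes, 14 of 29 were tested, and 5 rose, 8 fell and 1 did not pass, with a median of -0.29, beside 60.0% called (26.0% higher, 33.9% lower) and a median of -0.06 over all tested genes. Ccnd1, the cyclin D1 gene, was at 17.3 FPKM in SETD4 OE and 261 FPKM in control (-3.84), and the AP-1 gene Fosl1, whose span overlaps Ccdc85b, at 1.21 FPKM in SETD4 OE and 5.60 FPKM in control (-1.58). Bmp4 was at 3.10 FPKM in SETD4 OE and 0.795 FPKM in control (1.19) and reached the filter only through its SETD4 OE libraries. The span of Ccnd1 overlaps the much lower LTO1. Many of these targets answer to other pathways too, and the list was written with the fall of Ccnd1 known.

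**Figure D5:**
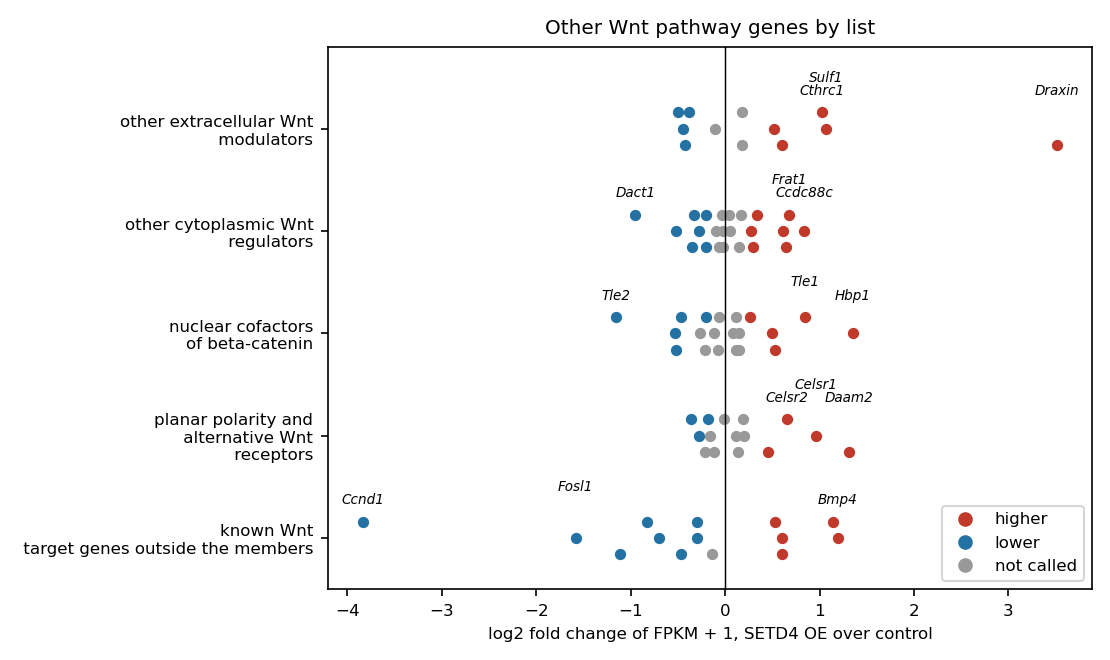
Log2 fold change of FPKM + 1, SETD4 OE over control, for the 84 tested genes of the 5 further Wnt lists; each point is a gene, and the 3 called genes of largest change in each list are named. Each list holds genes on both sides of 0, with Draxin farthest to the right (3.52) and Ccnd1 farthest to the left (-3.84).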

How the data were processed

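The starting molecule was total RNA, per the labels. HISAT2 2.0.5 and mm39 are named as aligner and build by the submitters' notes on processing; what counted the reads, with which annotation and strand setting, is not given in the sources used here. Values deposited by the authors are FPKM per library with gene coordinates and lengths, 1 table per group. Multiplied by gene length, 100% of values were whole multiples of 1 step (tolerance 0.05 reads), which gave the reads per gene. The sums over listed genes differ from the library size used by the authors, and this difference separates the groups. It was -5.04%, -3.97% and -3.69% in the SETD4 OE libraries, against 0.634%, 2.75% and 0.639% in the control libraries. Equal sums scaling removes it, and its cause was not tested.

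Genes averaging 1 FPKM or more across all 6 libraries were fitted as log2(FPKM + 1) with limma 3.58.1 (R 4.3.3), with a mean-variance trend, two-sided, Benjamini-Hochberg adjusted over 12994 genes; intervals are 95%. Fold changes on this scale understate the change of low genes, so ratios of mean FPKM are given too. Per-library values are given for called genes with an absolute log2 change of at least 0.5 and for the most abundant gene of each role; up to 3 called genes are named from each further list, and other genes named were chosen with their values in view. The 67 genes and all lists were chosen with earlier results of these data known. On simulated reads at these library sizes (13040 genes tested) the step found 95 of 100 genes set to change by 1.5-fold, 100 of 100 at 3-fold, and called 16 unchanged genes. The changed genes were drawn from those averaging at least 5 FPKM, balanced between rise and fall, with the same dispersion for all genes. In the data 60.0% of tested genes were called, so these counts do not give the error rate of this comparison or of lower genes. Libraries of a group differed beyond counting noise (chi-square per degree of freedom 4.36 to 19.0). Alternatives were other filters, a pseudocount of 0.1, 4 scalings, limma-voom on recovered reads, a replicate block and leaving out each library. Promoters came from RefSeq (GRCm38.p6) and were used for sequence only. Figures were drawn with matplotlib 3.10.9. A marker gene is not reported here and was left out of its list.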

Additional observations from a re-analysis of the deposited data

How the results depend on the processing

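Of the 22 called Wnt genes 20 kept their call and direction under all 15 alternatives that tested them, among them all 14 with an absolute log2 fold change of at least 0.5; Lrp5 and Dvl2 lost theirs under 3 and 1. Of the 16 genes not called, 9 passed under at least 1 alternative. A minimum mean of 5 FPKM leaves fewer genes to test (25 of the Wnt genes). With it 3 Wnt genes were lower, beside 7 in the main fit. Among genes called higher, 13 were of the further lists, beside 26 in the main fit, and 1881 of all genes, beside 3384. These counts are of different directions and are to be read against the main fit only. Signs turned for genes near 0: Fzd4 with quantile normalization (-0.033) and on leaving out 1 library (-0.0060 to 0.0335); Axin1 with equal sums (0.0158), upper quartile (0.0014) and quantile normalization (0.0402); Apc with equal sums (0.0142) and quantile normalization (0.11); and Axin2 without control replicate 1 (its leave-one-out range was -0.0431 to 0.149). The cause was not tested. Leaving out 1 library at a time gave 13 to 15 Wnt genes higher and 7 to 10 lower; the 10 came without control replicate 1, whose share of mitochondrially encoded reads (3.78%) was above that of the other controls (2.45% each) and near that of the SETD4 OE libraries (3.52% to 3.73%). The labels do not say what the replicate numbers share. Same-numbered libraries did not deviate together (correlations -0.0661, -0.229 and 0.0768), and differently numbered ones gave -0.247 to 0.3. With 3 libraries per group these values cannot settle whether the numbers pair the samples. With the replicate block 15 Wnt genes were higher and 7 lower, and 2993 and 3948 of all genes. Except for the long gene Lgr5 (16 to 20 reads in SETD4 OE and 1 to 12 reads in control), Wnt genes under 0.1 FPKM rest on few reads. For those others a difference was hardly detectable at this depth.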

Other observations

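Several genes of the further lists lay below the threshold of 1 FPKM on average, and these were picked after their values were seen. Frzb, a secreted Frizzled-related protein outside the name rule, had 1.02, 1.27 and 1.00 FPKM in the SETD4 OE libraries, against 0.328, 0.316 and 0.272 FPKM in the control libraries. Apcdd1, a membrane inhibitor of Wnt signalling, had 1.20, 1.12 and 1.25 FPKM in the SETD4 OE libraries, against 0.329, 0.349 and 0.307 FPKM in the control libraries. Sostdc1, which binds LRP5 and LRP6, had 1.17, 1.12 and 0.843 FPKM in the SETD4 OE libraries, against 0.175, 0.0319 and 0.282 FPKM in the control libraries. All 3 were higher in every SETD4 OE library than in any control library. Trabd2b, a membrane protease that cuts Wnt ligands, had 0.134, 0.224 and 0.127 FPKM in the SETD4 OE libraries, against 0.943, 1.05 and 0.903 FPKM in the control libraries, and Dact2, a paralogue of Dact1, had 0.412, 0.362 and 0.568 FPKM in the SETD4 OE libraries, against 0.998, 1.40 and 1.27 FPKM in the control libraries. Both were lower in every SETD4 OE library. How many of all genes below the threshold separate the groups in this way was not computed. The alternative Wnt receptor genes Ror1, at 0.911 ± 0.0485 FPKM in SETD4 OE and 0.553 ± 0.107 FPKM in control, and Ror2, at 0.406 ± 0.135 FPKM in SETD4 OE and 0.849 ± 0.299 FPKM in control, were near the threshold. The choroid plexus, ependymal and astrocyte marker sums that were higher in SETD4 OE are given with the results, and their part in these low levels was not tested.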
